A study of Mus musculus and Rattus norvegicus with 30 samples.

Results

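The potassium channel genes of the heart followed here were 10 genes chosen by name: Kcnh2, Kcnq1, Kcnj2, Kcnj3, Kcnj11, Kcnj8, Kcnd2, Kcnd3, Kcnip2 and Kcna5. The choice was made with earlier results of these data known, so their counts beside those of all genes are descriptive only. All 10 were matched by symbol among 53424 mouse gene symbols, and 9 were matched among 32545 rat genes, where Kcnd2 was not analysed. The study tested agonists of the estrogen-related receptors (ERR), nuclear receptors that drive genes of mitochondrial energy metabolism, by RNA sequencing in 2 systems. The first system was the left ventricle of wild-type (WT) mice, 18 libraries in all. It held 5 hearts after transverse aortic constriction (TAC, a surgical narrowing of the aorta that loads the ventricle with pressure) with the agonist 332, 5 TAC hearts with vehicle, 5 sham-operated hearts with 332 and 3 sham-operated hearts with vehicle. Dosing lasted 6 weeks and 332 was injected into the peritoneum, and the labels give neither age nor strain. The second system was neonatal rat ventricular myocytes (NRVM, heart muscle cells from pups of day 3, plated after a step that lets fibroblasts attach elsewhere and grown with bromodeoxyuridine), 12 libraries in all. These cells carried 25 nM of siRNA against ERRalpha and ERRgamma (double knockdown, DKD) or of scramble siRNA (S), and received the pan-ERR agonist 915 at 10 µM or DMSO vehicle for 24 h, with 3 libraries for each of DKD with 915, DKD with vehicle, S with 915 and S with vehicle. The protocol also lists siRNAs against Esrrb and E2f1, and the labels of these libraries name only ERRalpha and ERRgamma.

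Potassium channels carry the outward currents that end the cardiac action potential and hold the resting membrane potential. Kcnh2 encodes the pore of the rapid delayed rectifier and Kcnq1 that of the slow delayed rectifier. Kcnj2 encodes the main inward rectifier of the ventricle, Kcnj3 a subunit of the acetylcholine-gated channel best known from the atria, and Kcnj11 and Kcnj8 the pores of ATP-sensitive channels of heart muscle and of vascular mural cells. Kcnd2 and Kcnd3 encode the pores of the fast transient outward current, Kcnip2 their accessory subunit KChIP2, and Kcna5 the pore of an ultrarapid delayed rectifier. In rodent ventricle the transient outward current is a large part of repolarization, and in mouse heart Kcnip2 is known to follow the circadian clock through the transcription factor Klf15, and Kcnh2 is known as a clock-controlled gene.

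The 250 bases upstream of the RefSeq start site were read for 8 of the 10 genes in mouse build GRCm38.p6. Kcnj11 and Kcnq1, which fell with the receptor knockdown in rat cells, were not read. The windows were searched on both strands for the ERR half-site AAGGTCA, its extended form TNAAGGTCA and the E-box CACGTG, the letters bound by clock factors. The half-site lies inside the extended form, and the E-box reads the same on both strands. None of the 8 windows held either ERR form. These forms stood in 4.08% and 1.14% of 32851 windows of the same length, so most windows of any gene lack them. The E-box stood in the window of Kcnj2 only, against 6.02% of all windows. The windows of Kcnh2 and Kcna5 are printed because these genes differed between 332 and vehicle in TAC hearts, and that of Kcnj2 because it holds the E-box, in capitals at position -84 from the start site. The Kcnh2 window (chr5:24329592-24329841, minus strand) lies inside the gene, ahead of an internal start, and the Kcnj2 (chr11:111065914-111066163, plus strand) and Kcna5 (chr6:126535556-126535805, minus strand) windows lie directly ahead of the annotated gene. The windows of Kcnj3 and Kcnip2, not printed, also lie inside their genes.
Kcnh2: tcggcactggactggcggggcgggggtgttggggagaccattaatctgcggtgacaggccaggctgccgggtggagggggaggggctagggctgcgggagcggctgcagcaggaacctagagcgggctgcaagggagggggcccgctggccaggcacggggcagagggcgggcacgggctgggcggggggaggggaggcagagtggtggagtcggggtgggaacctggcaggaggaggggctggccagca
Kcnj2: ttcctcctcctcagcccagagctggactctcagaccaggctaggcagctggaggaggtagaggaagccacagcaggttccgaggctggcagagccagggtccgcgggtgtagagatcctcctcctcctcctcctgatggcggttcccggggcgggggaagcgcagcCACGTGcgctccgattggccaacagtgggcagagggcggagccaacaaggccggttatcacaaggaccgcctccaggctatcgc
Kcna5: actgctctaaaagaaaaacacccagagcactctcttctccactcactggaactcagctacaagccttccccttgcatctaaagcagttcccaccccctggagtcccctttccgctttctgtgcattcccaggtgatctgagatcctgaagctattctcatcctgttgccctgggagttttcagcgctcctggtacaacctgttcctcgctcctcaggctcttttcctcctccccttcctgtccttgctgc

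Total counts ran between 12013379 and 18315341 per rat library, and total estimated counts between 11375917 and 16599930 per mouse library. Esrra and Esrrg, which encode ERRalpha and ERRgamma, stood at 12.7 to 22.0 and 16.1 to 25.1 CPM (counts relative to the TMM-adjusted library total) in DKD cells, against 170 to 229 and 130 to 302 CPM in S cells. Esrrb, which encodes ERRbeta, was also lower in the knockdown, with 1.49 to 1.78 CPM in DKD cells with 915 against 5.68 to 6.97 CPM in S cells with 915, and 0.67 to 1.19 CPM in DKD vehicle cells against 3.01 to 4.43 CPM in S vehicle cells. All 3 receptor genes fell in both knockdown comparisons. All 4 markers of pressure load (Nppa, Nppb, Myh7 and Acta1) were higher in TAC hearts in both TAC comparisons. Heart muscle markers were present in every group of both systems, and rat cells also held fibroblast transcripts at a summed 7748 to 15000 CPM over 10 genes. The labels number the replicates but do not say that they came from separate isolations or animals, so the p-values measure the spread between these libraries, which may be technical. Adjusted p-values below come from the quasi-likelihood test of edgeR, adjusted over all genes tested by Benjamini and Hochberg's method, and a gene is said to have risen or fallen where its adjusted p was below 0.05.

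Per length, Kcnip2 was the highest and Kcnd3 the lowest of the 10 genes in every mouse group. Kcnip2 averaged 26.8 ± 6.47 TPM (transcript abundance per length as a share of the library, SD, n = 5) in TAC hearts with 332, 22.5 ± 4.87 TPM (n = 5) in TAC vehicle hearts, 32.0 ± 2.65 TPM (n = 5) in sham hearts with 332 and 32.4 ± 0.759 TPM (n = 3) in sham vehicle hearts. Kcnj11 came next in all 4 groups, with means of 12.1 to 15.7 TPM. Kcnh2 averaged 3.74 to 8.53 TPM and Kcnj3 3.11 to 5.57 TPM, and their ranges overlapped in TAC vehicle hearts and in sham hearts with 332, but not in TAC hearts with 332 or sham vehicle hearts. Kcnj8 averaged 3.72 to 4.30 TPM and Kcnq1 2.58 to 3.13 TPM. In TAC vehicle hearts Kcnj8 (4.08 TPM) stood above Kcnh2 (3.74 TPM) and Kcnj3 (3.11 TPM), and in TAC hearts with 332 it stood above Kcnj3 (4.11 and 3.69 TPM), with overlapping ranges in both. Kcnj2 (1.37 to 1.79 TPM), Kcnd2 (1.08 to 1.73 TPM) and Kcna5 (1.32 to 2.34 TPM) were lower, with overlapping ranges between several neighbours. Kcnd3 averaged 0.577 to 0.696 TPM.

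The order differed in the rat cells. Kcnj11 had the highest mean per length in 3 of the 4 groups, with 14.1 ± 1.37 FPKM (fragments per kilobase, scaled to library depth) in DKD cells with 915, 25.2 ± 2.53 FPKM in S cells with 915 and 24.6 ± 3.05 FPKM in S vehicle cells (SD, n = 3 each). Its range overlapped those of Kcnh2 and Kcnq1 in DKD cells with 915, and that of Kcnq1 in S cells with 915. In DKD vehicle cells Kcnj2 had the highest mean at 16.2 ± 0.408 FPKM, with Kcnj11 at 13.9 ± 1.87 FPKM and overlapping ranges. Kcnip2 and Kcna5 were the lowest, and both failed the filter on low counts. Kcnip2 had 2, 4 and 2 counts in DKD cells with 915, 1 count in each DKD vehicle library, 5, 9 and 177 counts in S cells with 915, and 2, 3 and 1 counts in S vehicle cells. The 177 counts (10.0 CPM) came from a single library, and every other library had 9 counts or fewer. Kcna5 had 5, 23 and 7 counts in DKD cells with 915, 7, 4 and 0 in DKD vehicle cells, 6, 11 and 10 in S cells with 915, and 0, 0 and 3 in S vehicle cells. These counts were too low to set a level against the other genes, and 7 of the 9 rat genes were tested.

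**Figure D1:**
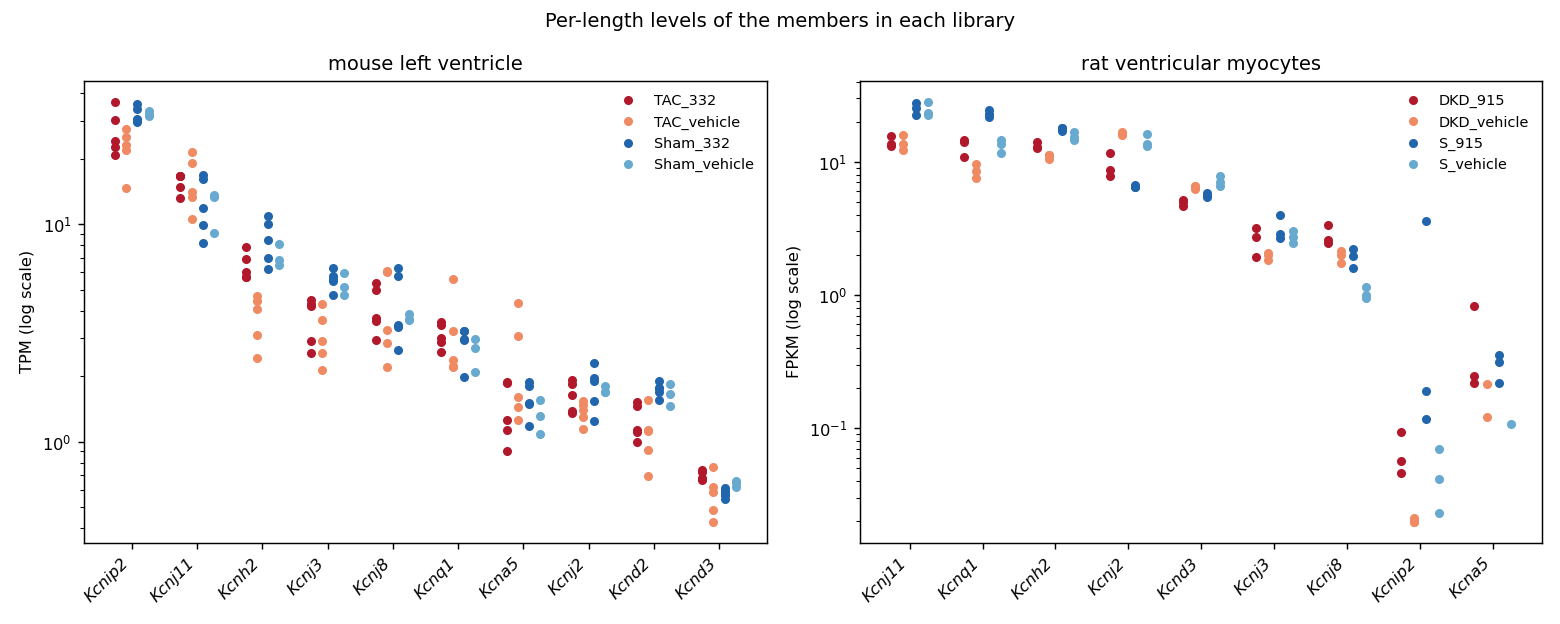
Level per transcript length of each gene in each library, TPM in mouse and FPKM in rat, on log axes (points are libraries, colours are groups, and libraries at 0 are not drawn). Kcnip2 is highest in the mouse ventricle and among the lowest in the rat cells, where 1 library of S cells with 915 stands apart.

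TAC lowered most of these genes in the mouse ventricle. In vehicle hearts 7 of the 10 fell and none rose, against 26.4% of all 14038 genes tested that passed in either direction (1902 higher and 1808 lower). In hearts with 332, 8 fell and none rose, against 23.9% of all genes. The median log2 fold change of the 10 genes was -0.70 in vehicle hearts and -0.60 in hearts with 332, beside medians over all genes of -0.01 and 0.00. In bulk tissue, fewer cells of a type and less RNA per cell cannot be told apart. The fibroblast markers summed to 1964 to 2702 CPM in TAC vehicle hearts and 1310 to 1503 CPM in sham vehicle hearts, with 7 of 10 higher. The cardiomyocyte markers summed to 55320 to 70070 CPM in TAC vehicle hearts and 63910 to 67040 CPM in sham vehicle hearts, with 4 higher and 5 lower of 12. In hearts with 332 the fibroblast sum was 1721 to 3209 CPM in TAC hearts and 1317 to 1558 CPM in sham hearts, with 6 of 10 higher, and the cardiomyocyte sum was 54330 to 75190 CPM in TAC hearts and 66460 to 83880 CPM in sham hearts, with 3 higher and 6 lower of 12. No fibroblast or cardiomyocyte marker was at 0 in any group, and the part of the cell makeup in the fall was not tested.

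Counts were compared after TMM scaling, and the direction of some of these genes depended on the scale. Ratios of mean TPM between TAC and sham had a median over all genes tested of 0.48 on the log2 scale in vehicle hearts and 0.35 with 332. On that scale Kcnj8 (0.13), Kcnq1 (0.27), Kcnj11 (0.38) and Kcna5 (0.78) were above 0 in vehicle hearts, and Kcnq1 (0.11), Kcnd3 (0.23) and Kcnj11 (0.31) with 332. Relative to that median, 9 of the 10 genes were lower in TAC vehicle hearts, Kcna5 being the exception, and all 10 were lower in TAC hearts with 332. Within sequencing set 1 (replicates 1 to 3) TAC lowered 7 of the genes in vehicle hearts and 6 with 332. Of all 13687 genes tested in set 1, 3096 passed in vehicle hearts and 1664 with 332. In that set the sham hearts with 332 were on a sequencing lane of their own. With 332, lane and operation therefore cannot be told apart in set 1. Within set 2 (replicates 4 and 5), which holds no sham vehicle heart, none of the 10 passed with 332, with log2 fold changes of -1.06 to -0.10 there. Only 52 of all 13861 genes tested in set 2 passed with 332.

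Kcnh2 (chromosome 5, 24319589 to 24351684 in GRCm38.p6), the pore of the rapid delayed rectifier, had 32.5, 28.9, 23.6, 33.4 and 24.9 CPM in TAC vehicle hearts, against 60.6, 63.7 and 59.2 CPM in sham vehicle hearts. Every TAC vehicle heart lay below every sham vehicle heart. The log2 fold change was -1.14 (SE 0.12, adjusted p = 4.36e-06). With 332, Kcnh2 had 44.7, 49.8, 38.6, 39.9 and 52.6 CPM in TAC hearts, against 66.6, 54.4, 69.4, 73.7 and 75.2 CPM in sham hearts. These groups did not overlap either, and the log2 fold change was -0.58 (SE 0.10, adjusted p = 0.000491).

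Kcnq1, the slow delayed rectifier, had 23.2 to 28.5 CPM in TAC vehicle hearts and 27.4 to 31.7 CPM in sham vehicle hearts, and did not pass (log2 fold change -0.19, SE 0.11, adjusted p = 0.219). With 332 it averaged 24.5 ± 3.61 CPM in TAC hearts and 30.5 ± 3.20 CPM in sham hearts (n = 5 each), with overlapping ranges, and fell (log2 fold change -0.32, SE 0.09, adjusted p = 0.0161), although its TPM ratio was above 0. That call was lost on library totals without TMM scaling, at -0.17 with adjusted p = 0.17. It was also lost without TAC_332 replicate 3 (-0.23, adjusted p = 0.0516) or Sham_332 replicate 2 (-0.26, adjusted p = 0.0619), and within set 1 (-0.315, adjusted p = 0.112). The antisense transcript Kcnq1ot1 lies within Kcnq1, and the mouse libraries' kit does not mark strand.

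Kcnj2, the ventricular inward rectifier, had 28.4, 34.5, 29.8, 21.1 and 14.95 CPM in TAC vehicle hearts, against 47.5, 50.4 and 42.9 CPM in sham vehicle hearts. The groups did not overlap, and the log2 fold change was -0.72 (SE 0.16, adjusted p = 0.00277). With 332 it had 17.4 to 34.0 CPM in TAC hearts, against 38.1 to 47.5 CPM in sham hearts, and fell by 0.67 (SE 0.13, adjusted p = 0.0017).

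Kcnj3 (chromosome 2, 55411798 to 55598145), the acetylcholine-gated subunit, showed the lowest log2 fold change of the 10 genes in both comparisons. It had 36.8, 30.7, 26.7, 32.1 and 16.2 CPM in TAC vehicle hearts, against 70.3, 75.4 and 73.6 CPM in sham vehicle hearts. With 332 it had 36.0, 43.8, 22.8, 18.9 and 41.4 CPM in TAC hearts, against 64.6, 69.7, 84.9, 62.9 and 63.7 CPM in sham hearts. Neither pair of groups overlapped, and the log2 fold changes were -1.27 (SE 0.26, adjusted p = 0.00311) in vehicle hearts and -1.08 (SE 0.22, adjusted p = 0.00332) in hearts with 332. The 5 tested atrial markers, among them Nppa, had 3 higher and none lower in both comparisons. Kcnj5, which encodes the partner subunit of the same channel, fell too, by 1.13 on the log2 scale (SE 0.15) in vehicle hearts and by 0.76 (SE 0.13) in hearts with 332.

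The ATP-sensitive pores differed from each other in their calls. Kcnj11 of heart muscle averaged 100.2 ± 8.48 CPM in TAC vehicle hearts and 107 ± 1.52 CPM in sham vehicle hearts, and its log2 fold change of -0.07 (SE 0.10, adjusted p = 0.62) did not pass. With 332 it averaged 101 ± 15.1 CPM in TAC hearts and 111 ± 4.41 CPM in sham hearts (log2 fold change -0.14, SE 0.08, adjusted p = 0.221), and passed without TAC_332 replicate 2 (-0.22, adjusted p = 0.0292). Kcnj8, best known from vascular mural cells, fell by 0.54 on the log2 scale (SE 0.17, adjusted p = 0.0263) in vehicle hearts, although its TPM ratio was above 0. It had 15.6 to 25.85 CPM in TAC vehicle hearts and 25.92 to 30.1 CPM in sham vehicle hearts, so the groups were adjacent without overlap. In hearts with 332 it fell by 0.47 (SE 0.14, adjusted p = 0.0249), with overlapping ranges of 13.6 to 24.5 CPM in TAC hearts and 21.9 to 35.6 CPM in sham hearts. Both Kcnj8 calls were lost on library totals without TMM scaling, at -0.44 (adjusted p = 0.0667) and -0.32 (adjusted p = 0.1). The vehicle call was also lost without Sham_vehicle replicate 1 (-0.49) or 2 (-0.56) or TAC_vehicle replicate 2 (-0.54) or 3 (-0.47), and the call with 332 without Sham_332 replicate 4 (-0.40) or 5 (-0.45). Without the sequencing set in the fit the vehicle call was lost too (-0.43, adjusted p = 0.0953). The call with 332 was lost with only the groups compared (-0.47, adjusted p = 0.0577). Within set 1 the difference with 332 was -0.22 (adjusted p = 0.252). The mural markers summed to 468 to 693 CPM in TAC vehicle hearts and 557 to 667 CPM in sham vehicle hearts, with 1 of 7 higher and none lower. Abcc9, the regulatory subunit of the muscle channel, fell by 0.72 (SE 0.20) in vehicle hearts and by 0.82 (SE 0.17) with 332, and Abcc8, another regulatory subunit, by 0.38 (SE 0.08) and 0.21 (SE 0.07).

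All 3 genes of the transient outward current fell in vehicle hearts. Kcnip2 (chromosome 19, 45792346 to 45816422), the accessory subunit, had 88.2, 76.3, 53.2, 80.8 and 64.8 CPM in TAC vehicle hearts, against 134, 136 and 144 CPM in sham vehicle hearts. With 332 it had 94.0, 85.8, 77.1, 58.3 and 107 CPM in TAC hearts, against 132, 129, 135, 129 and 118 CPM in sham hearts. No TAC heart reached the lowest sham heart of its treatment, and the log2 fold changes were -0.90 (SE 0.17, adjusted p = 0.00124) in vehicle hearts and -0.61 (SE 0.14, adjusted p = 0.0061) with 332. Kcnd2, one of the pores, had 19.3, 13.3, 12.1, 8.81 and 4.48 CPM in TAC vehicle hearts, against 20.8, 23.6 and 24.3 CPM in sham vehicle hearts. Its log2 fold change was -0.78 (SE 0.25, adjusted p = 0.0332) in vehicle hearts and -0.88 (SE 0.22, adjusted p = 0.00904) with 332, and the first call was lost without any 1 of Sham_vehicle replicates 1, 2 or 3 or TAC_vehicle replicates 2 or 3 (-0.86 to -0.75, adjusted p up to 0.0969). That call was also lost with only the groups compared in the fit (-0.61, adjusted p = 0.11). Kcnd3, the other pore, fell by 0.67 (SE 0.12, adjusted p = 0.00051) in vehicle hearts, with 8.88 to 11.8 CPM in TAC hearts and 15.9 to 18.4 CPM in sham hearts. With 332, Kcnd3 had 8.76 to 14.7 CPM in TAC hearts and 10.6 to 17.1 CPM in sham hearts, and its difference of -0.22 (SE 0.11, adjusted p = 0.133) did not pass, but did without TAC_332 replicate 5 (-0.30, adjusted p = 0.0395). Whether the effects of TAC on Kcnd3 differed with 332 was tested directly and did not pass (difference 0.45, SE 0.16, adjusted p = 0.305).

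Kcna5 (chromosome 6, 126532551 to 126535555), the ultrarapid delayed rectifier, had 16.5, 11.7, 15.1, 18.8 and 22.4 CPM in TAC vehicle hearts, against 14.96, 12.7 and 16.7 CPM in sham vehicle hearts. These ranges overlapped (log2 fold change 0.08, SE 0.17, adjusted p = 0.762). With 332 it had 7.98, 11.1, 7.87, 10.7 and 11.9 CPM in TAC hearts, against 13.4, 15.9, 18.8, 14.8 and 13.5 CPM in sham hearts. All 5 TAC hearts with 332 lay below all 5 sham hearts with 332, and the log2 fold change was -0.62 (SE 0.15, adjusted p = 0.00445). It was -0.81 within set 1 (adjusted p = 0.00493), where lane and operation cannot be told apart, and -0.32 within set 2 (adjusted p = 0.301).

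**Figure D2:**
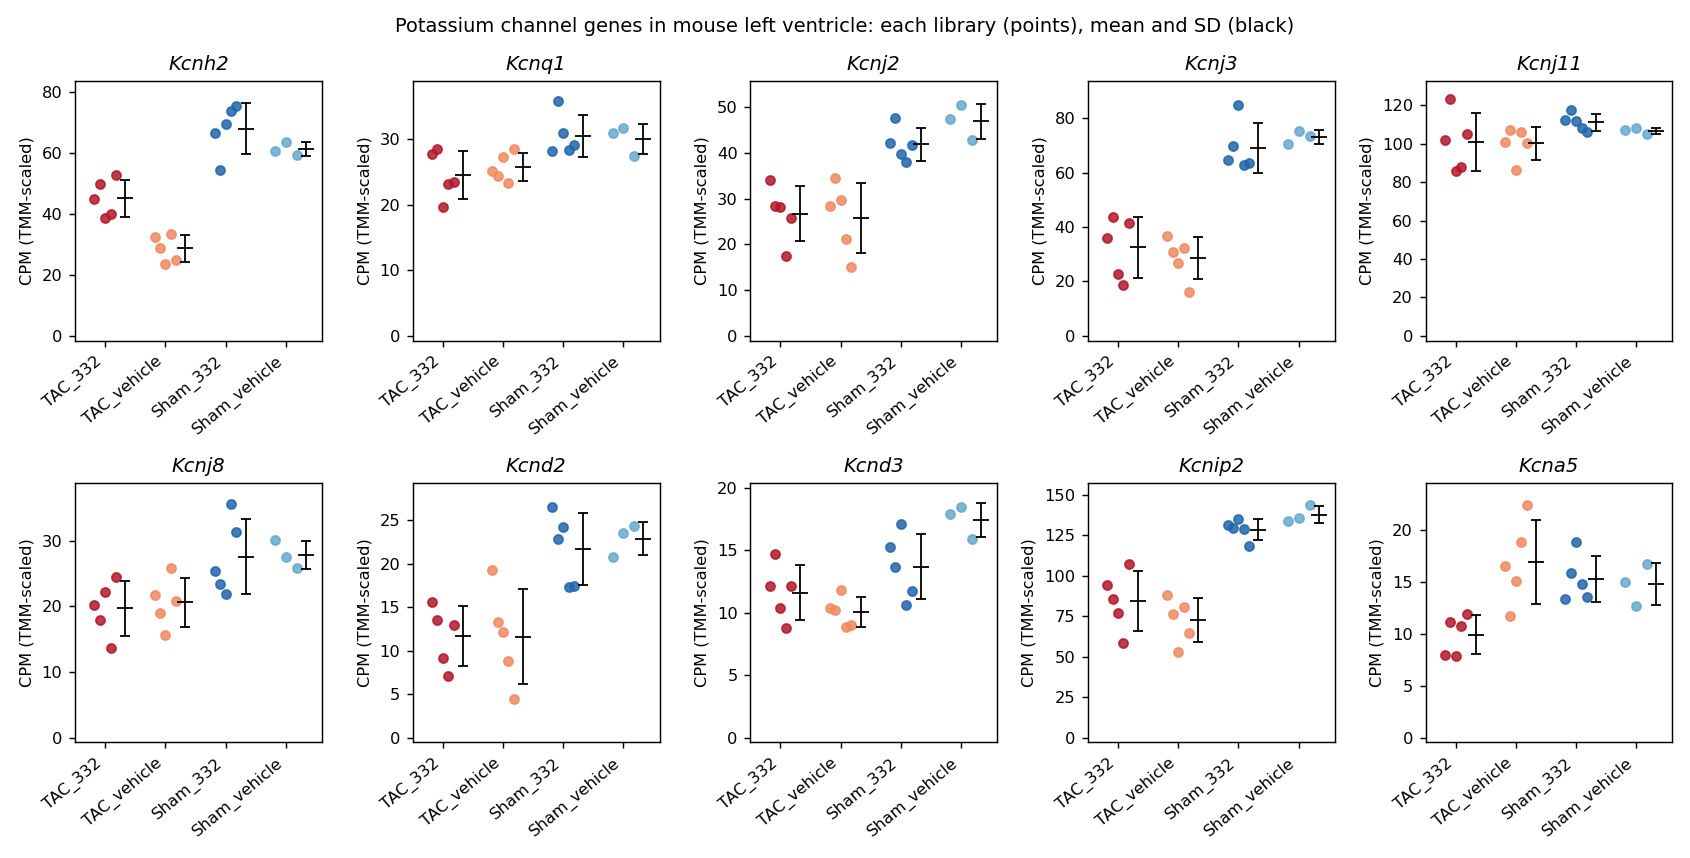
CPM of the 10 genes in each mouse heart (points), by group, with the group mean and SD in black. Kcnh2, Kcnj2, Kcnj3, Kcnd2 and Kcnip2 lie lower in both TAC groups than in the sham group of the same treatment without overlap, and Kcnh2 is the only gene whose TAC groups with 332 and with vehicle do not overlap.

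Within TAC hearts 332 moved 2 of the 10 genes, against 0.42% of all genes tested (59 of 14038). Kcnh2 was higher with 332, at 38.6 to 52.6 CPM in the 5 TAC hearts with 332 against 23.6 to 33.4 CPM in the 5 TAC vehicle hearts. The ranges did not overlap, and the log2 fold change was 0.65 (SE 0.10, adjusted p = 0.0069), a 1.57-fold difference. The level of Kcnh2 in TAC hearts with 332 was 45.1 ± 6.08 CPM (SD, n = 5), against 61.2 ± 2.26 CPM (n = 3) in sham vehicle hearts. Kcna5 was lower with 332, at 7.87 to 11.9 CPM in TAC hearts with 332 against 11.7 to 22.4 CPM in TAC vehicle hearts. The highest heart with 332 stood just above the lowest vehicle heart, and the log2 fold change was -0.76 (SE 0.14, adjusted p = 0.0223). The other 8 genes had log2 fold changes between -0.07 and 0.22 with overlapping ranges and adjusted p-values of 0.414 to 0.983. None of 31 other potassium channel genes passed edgeR's test in this comparison, and 5 had an unadjusted p below 0.05. The leukocyte markers summed to 132 to 194 CPM in TAC hearts with 332 and 181 to 245 CPM in TAC vehicle hearts, where none of 7 passed and 4 had an unadjusted p below 0.05, and their part in the 2 differences was not tested.

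The Kcnh2 call held in all 18 fits that each left out a library (0.58 to 0.72), and the Kcna5 call was lost in 5 of them, those without TAC_332 replicates 3 or 5 or TAC_vehicle replicates 1, 3 or 5 (adjusted p up to 0.0926). Within sequencing set 1 the differences were 0.65 for Kcnh2 (adjusted p = 0.0599) and -0.67 for Kcna5 (adjusted p = 0.217), and within set 2 0.66 (adjusted p = 0.742) and -0.87 (adjusted p = 0.269). The sizes were close to the pooled values in both sets, and neither gene passed within a set.

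In sham hearts 332 moved none of the 10 genes in edgeR's quasi-likelihood test, and 0 passed with DESeq2 or at an unadjusted p below 0.05, against 0.00712% of all genes (1 of 14038). Kcnh2 had 54.4 to 75.2 CPM in sham hearts with 332 and 59.2 to 63.7 CPM in sham vehicle hearts (log2 fold change 0.10, SE 0.12). Kcna5 had 13.4 to 18.8 CPM in sham hearts with 332 and 12.7 to 16.7 CPM in sham vehicle hearts (log2 fold change -0.05, SE 0.17). The difference between the effects of 332 in TAC and in sham hearts was 0.55 for Kcnh2 (SE 0.16, adjusted p = 0.197) and -0.71 for Kcna5 (SE 0.22, adjusted p = 0.239). Neither passed, and 0.0641% of all genes did. Both passed without the filter on low counts, with adjusted p = 0.000973 and 0.00215 and the same sizes, and that fit called 521 of 26059 genes, against 9 of 14038 with the filter. Sham hearts with 332 of set 1 were on a sequencing lane of their own, so lane and group cannot be told apart there.

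Genes of the circadian clock moved in some of the same comparisons. In TAC vehicle hearts against sham vehicle hearts, 5 of 16 tested clock genes were higher and 8 lower. Arntl, which encodes the clock activator BMAL1, stood at 5.23 to 17.2 CPM in TAC vehicle hearts and 0.37 to 1.39 CPM in sham vehicle hearts (log2 fold change 3.90, SE 0.79). Dbp, an output gene of the clock, fell by 1.12 (SE 0.27), and Nr1d1, a clock repressor, rose by 0.63 (SE 0.19). In TAC hearts with 332 against sham hearts with 332, 0 of the 16 were higher and 2 lower. A clock score, the first principal component of the 16 genes (85.1% of their variance), was -0.21 to 1.95 in TAC hearts with 332, -5.13 to -1.36 in TAC vehicle hearts, -2.03 to 2.22 in sham hearts with 332 and 1.57 to 2.94 in sham vehicle hearts. The genes were first centred within each sequencing set, so scores from set 1 and set 2 have different zero points. Set 2 holds no sham vehicle heart. The TAC groups with 332 and with vehicle did not overlap in this score, and 1 of the 16 genes passed between them, with 14 at an unadjusted p below 0.05. The collection times of the hearts are not given in the sources used here.

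Kcnh2 was lowest in the 2 TAC vehicle hearts with the lowest scores (23.6 and 24.9 CPM at scores of -5.13 and -4.32). The sham heart with 332 at a score of -2.03 had the lowest Kcnh2 of the 8 sham hearts, 54.4 CPM. TAC hearts with 332 lay at 38.6 to 52.6 CPM, below all 8 sham hearts, at scores that overlapped those of sham hearts with 332 within each set. Only TAC_332 replicate 5 of set 2 (1.95) reached the scores of sham vehicle hearts, which were all in set 1. Within set 1 no TAC heart with 332 scored above 1.05, below every sham vehicle heart. With the clock score as a term in the fit, the difference of Kcnh2 between 332 and vehicle in TAC hearts was 0.28 (SE 0.10, adjusted p = 0.625), and that of Kcna5 was -0.69 (SE 0.22, adjusted p = 0.585). For this comparison 0 of all 14038 genes passed with the term and 59 without it. The same term left the effect of TAC on Kcnh2 in hearts with 332 at -0.56 (SE 0.07, adjusted p = 8.84e-06) and kept 8 of the 10 genes called there. In vehicle hearts it left TAC differences of -0.56 (SE 0.15, adjusted p = 0.147) for Kcnh2, -0.47 (SE 0.39) for Kcnj3 and -0.40 (SE 0.25) for Kcnip2, and called none of the 10, while the number of all genes called there was 47 of 14038 with the term and 3710 without it. In vehicle hearts the score and the operation moved together without overlap and cannot be told apart. In TAC hearts the score and 332 likewise moved together without overlap. The differences between 332 and vehicle fitted with the term therefore cannot separate the agonist from the score.

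**Figure D3:**
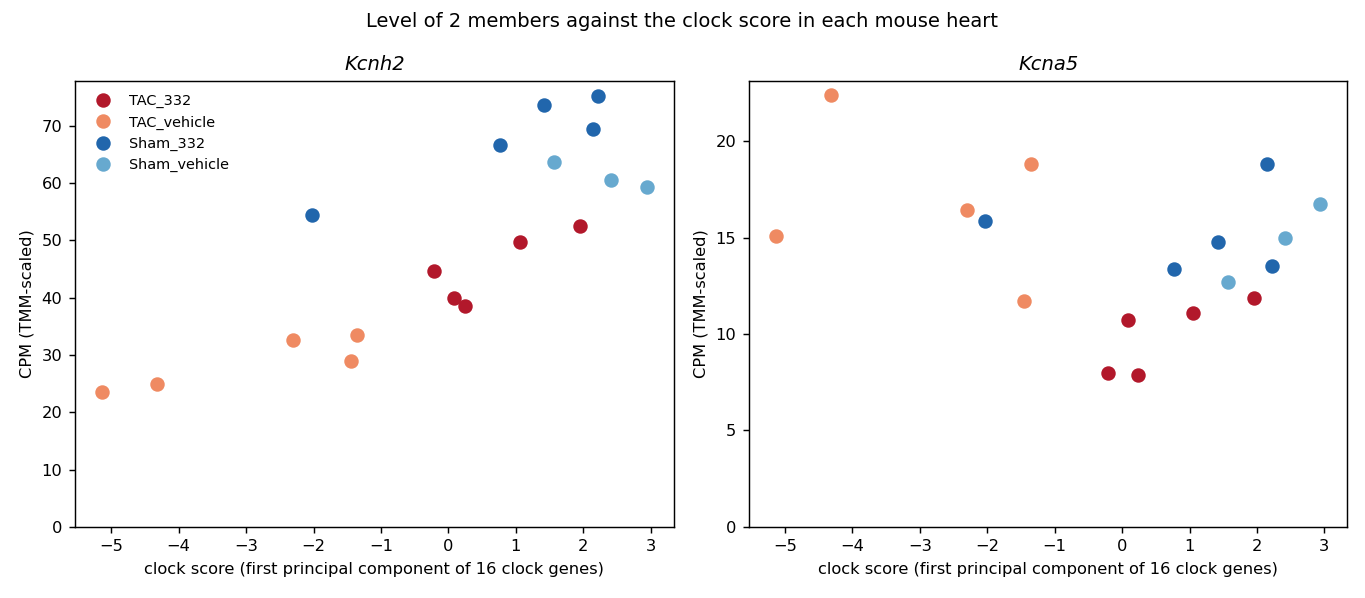
CPM of Kcnh2 (left) and Kcna5 (right) in each mouse heart against the clock score of that heart, with colours for the groups. TAC vehicle hearts lie at the lowest scores but for 1 sham heart with 332 at -2.03. TAC hearts with 332 lie below the sham hearts in Kcnh2, at scores that overlap those of sham hearts with 332. Clock genes were centred within each sequencing set before scoring.

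Among the other potassium channel genes of the list, 31 were tested in mouse. In vehicle hearts TAC raised 3 and lowered 8, and in hearts with 332 it raised 2 and lowered 9. Kcnn2, a calcium-activated channel, fell by 1.02 (SE 0.14) in vehicle hearts, with 4.86 to 8.83 CPM in TAC hearts and 14.2 to 16.5 CPM in sham hearts. It fell with 332 too (log2 fold change -0.51, SE 0.12). Kcnv2, a modifier subunit of voltage-gated channels, had 1.62 to 6.49 CPM in TAC hearts with 332 and 12.2 to 16.9 CPM in sham hearts with 332 (log2 fold change -1.65, SE 0.33). Kcna2, a voltage-gated pore, fell by 1.70 (SE 0.33) with 332 and also fell in vehicle hearts (log2 fold change -1.66, SE 0.37). Kcnn1 rose by 0.26 (SE 0.08) with 332 and did not pass in vehicle hearts (0.10, SE 0.10). Kcnj14, an inward rectifier, rose in both comparisons, by 1.70 (SE 0.52) in vehicle hearts and 2.06 (SE 0.44) with 332, and reached at most 1.19 CPM in a sham heart. In vehicle hearts Kcnmb1, a subunit of smooth muscle calcium-activated channels, rose by 1.15 (SE 0.31) and Kcnn3 by 1.12 (SE 0.40). With 332 neither passed (0.21, SE 0.26, and 0.42, SE 0.31).

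Of 11 tested regulators of channel genes, TAC raised 2 and lowered 2 in vehicle hearts and raised 1 and lowered 3 with 332. Klf15 fell with TAC in hearts with 332 (log2 fold change -1.001, SE 0.16), and its difference in vehicle hearts, -0.42 (SE 0.19, adjusted p = 0.107), did not pass. Irx5, a repressor of transient outward channel genes, did not pass in any mouse comparison. Tbx5, a cardiac T-box factor, fell by 1.17 (SE 0.15) in TAC vehicle hearts and by 0.43 (SE 0.13) in TAC hearts with 332. Tbx5 was the only listed regulator called between 332 and vehicle in TAC hearts, at 10.95 to 18.8 CPM with 332 against 7.26 to 11.03 CPM with vehicle (log2 fold change 0.66, SE 0.13, adjusted p = 0.032). Of the 11 regulators, 7 had an unadjusted p below 0.05 there, among them Klf15 (log2 fold change -0.52, SE 0.16, adjusted p = 0.174).

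In the rat myocytes 915 moved these genes in both directions. In S cells 2 of the 7 tested rose and 2 fell, against 42.2% of all 15181 genes tested that passed in either direction, and in DKD cells 2 rose and 2 fell, against 35.7%. The median log2 fold change of the 7 genes was 0.17 in S cells and 0.25 in DKD cells, beside 0.01 and -0.00 over all genes. With 915 the fibroblast markers summed to 7748 to 8526 CPM in S cells, against 13940 to 15000 CPM in S vehicle cells, and 7 of 10 were lower. The mural markers summed to 851 to 1015 CPM in S cells with 915, against 1798 to 1947 CPM in S vehicle cells, and 5 of 7 were lower. The cardiomyocyte markers summed to 25270 to 26240 CPM in S cells with 915 and 19050 to 21120 CPM in S vehicle cells, with 4 higher and 2 lower of 11. In DKD cells with 915 the mural sum was 1074 to 1236 CPM, against 1710 to 1885 CPM in DKD vehicle cells. The fibroblast sum there was 9045 to 11420 CPM, against 13370 to 14780 CPM, with 1 higher and 4 lower of 10. Unlike in S cells, the cardiomyocyte sum was lower with 915, at 9390 to 11990 CPM against 12110 to 12520 CPM. Of 11 cardiomyocyte markers, 1 was higher and 3 lower in DKD cells. Of 16 clock genes, 8 rose with 915 in S cells and 9 in DKD cells. The part of these genes in the changes of the channel genes was not tested.

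Kcnj2 (chromosome 10, 99437436 to 99439114 in rn6), the inward rectifier, had 11.4, 10.9 and 10.9 CPM in S cells with 915, against 22.6, 27.2 and 22.9 CPM in S vehicle cells. In DKD cells it had 19.4, 13.1 and 14.5 CPM with 915, against 27.5, 26.7 and 28.2 CPM with vehicle. The groups did not overlap with either siRNA, and Kcnj2 fell by 1.13 on the log2 scale (SE 0.12, adjusted p = 5.1e-08) in S cells and by 0.81 (SE 0.12, adjusted p = 6.77e-06) in DKD cells.

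Kcnq1 (chromosome 1, 216293087 to 216630339), the slow delayed rectifier, moved the other way. It had 87.2, 91.2 and 98.2 CPM in S cells with 915, against 58.9, 46.9 and 55.1 CPM in S vehicle cells. In DKD cells it had 57.5, 43.2 and 55.6 CPM with 915, against 34.5, 38.3 and 30.5 CPM with vehicle. Every library with 915 lay above every vehicle library of the same siRNA, and the log2 fold changes were 0.78 (SE 0.11, adjusted p = 3.47e-05) in S cells and 0.59 (SE 0.11, adjusted p = 0.000832) in DKD cells. Kcne1, the accessory subunit of this channel, had 5.02 to 6.46 CPM in S cells with 915 and 4.39 to 5.47 CPM in S vehicle cells, and did not pass in S cells (log2 fold change 0.25, SE 0.22, adjusted p = 0.383).

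Kcnd3 (chromosome 2, 207923775 to 208140727), the transient outward pore, had 37.6, 39.7 and 37.6 CPM in S cells with 915, against 45.5, 53.1 and 48.4 CPM in S vehicle cells. It fell by 0.35 (SE 0.07, adjusted p = 0.000364) in S cells and by 0.40 (SE 0.07, adjusted p = 0.000142) in DKD cells, where it had 31.6 to 35.0 CPM with 915 and 42.7 to 45.02 CPM with vehicle. Neither pair of groups overlapped.

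Kcnj8 (chromosome 4, 176782498 to 176789304), the mural ATP-sensitive pore, had 5.02, 4.06 and 5.56 CPM in S cells with 915, against 2.94, 2.42 and 2.54 CPM in S vehicle cells. It rose by 0.89 (SE 0.21, adjusted p = 0.00147) in S cells. In DKD cells the log2 fold change was 0.50 (SE 0.20, adjusted p = 0.0543), with 6.21 to 8.45 CPM with 915 and 4.46 to 5.46 CPM with vehicle, and it passed with RLE size factors, DESeq2, a minimum count of 30 or library totals (adjusted p = 0.0377 to 0.0485) and without DKD_915 replicate 1 (0.58, adjusted p = 0.0472). Of the 7 mural markers, 0 were higher and 5 lower with 915 in S cells, and 2 were higher and 5 lower in DKD cells, and their part in the values of Kcnj8 was not tested.

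Kcnh2 (chromosome 4, 7355574 to 7387253) had 72.8, 69.1 and 72.1 CPM in S cells with 915, against 69.0, 58.7 and 62.8 CPM in S vehicle cells. The highest vehicle library lay just under the lowest with 915, and the log2 fold change of 0.17 (SE 0.07, adjusted p = 0.0534) did not pass. In DKD cells it had 50.6, 52.4 and 56.7 CPM with 915, against 46.1, 45.8 and 42.5 CPM with vehicle, and rose by 0.25 (SE 0.07, adjusted p = 0.00699). In S cells it passed with RLE size factors, with library totals, without the low-count filter and with DESeq2 (adjusted p = 0.0397 to 0.0491). It also passed without S_vehicle replicate 1 (0.23, adjusted p = 0.0163) or DKD_915 replicate 3 (0.17, adjusted p = 0.041). Kcnj11 (chromosome 1, 102103094 to 102106127) and Kcnj3 (chromosome 3, 41019898 to 41181070) did not pass in either comparison. Kcnj11 had log2 fold changes of 0.03 (SE 0.11) in S cells and 0.00 (SE 0.12) in DKD cells, and Kcnj3 0.20 (SE 0.22) and 0.39 (SE 0.22).

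None of the 7 genes responded to 915 differently in DKD and S cells by edgeR's quasi-likelihood test of the difference, against 3.73% of all genes, and 0 had an unadjusted p below 0.05 or passed with DESeq2. The differences ran from -0.38 (SE 0.29) for Kcnj8 to 0.31 (SE 0.17, adjusted p = 0.369) for Kcnj2.

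The knockdown itself lowered 3 of the 7 tested genes in vehicle cells and raised 1, against 20.4% of all genes (1176 higher and 1923 lower). Under 915 it lowered 4 and raised 2, against 33.9%. The median log2 fold change of the 7 genes was -0.48 in vehicle cells and -0.30 under 915, beside 0.01 and 0.03 over all genes. The cardiomyocyte markers summed to 12110 to 12520 CPM in DKD vehicle cells, against 19050 to 21120 CPM in S vehicle cells, with 8 lower and 1 higher of 11. Under 915 that sum was 9390 to 11990 CPM in DKD cells and 25270 to 26240 CPM in S cells, with 11 of 11 lower. The fibroblast markers summed to 13370 to 14780 CPM in DKD vehicle cells and 13940 to 15000 CPM in S vehicle cells, with 1 of 10 higher. Under 915 that sum was 9045 to 11420 CPM in DKD cells and 7748 to 8526 CPM in S cells, with 6 of 10 higher. Mural markers summed to 1710 to 1885 CPM in DKD vehicle cells and 1798 to 1947 CPM in S vehicle cells. Of 7 mural markers, 1 was lower there and 0 higher. Under 915 the mural sum was 1074 to 1236 CPM in DKD cells and 851 to 1015 in S cells, with 5 of 7 higher. The leukocyte markers summed to 50.9 to 53.0 CPM in DKD vehicle cells and 27.6 to 32.5 CPM in S vehicle cells. Of 5 tested, 3 were higher in vehicle cells and 4 under 915. The leukocyte sum under 915 was 65.3 to 81.9 CPM in DKD cells and 38.0 to 38.7 CPM in S cells. The part of these markers in the changes of the channel genes was not tested.

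Kcnj11, the pore of the muscle ATP-sensitive channel, had 48.7, 41.7 and 37.4 CPM in DKD vehicle cells, against 86.6, 68.3 and 71.3 CPM in S vehicle cells. Under 915 it had 39.5, 41.1 and 47.3 CPM in DKD cells, against 69.1, 84.2 and 77.3 CPM in S cells. All 6 DKD libraries lay below all 6 S libraries, and the log2 fold changes were -0.82 (SE 0.11, adjusted p = 8.58e-05) in vehicle cells and -0.85 (SE 0.11, adjusted p = 3.99e-05) under 915. Of the regulatory subunits, Abcc8 fell under 915 (log2 fold change -0.49, SE 0.07), and Abcc9 did not pass in either knockdown comparison.

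Kcnh2 and Kcnq1, the delayed rectifiers, fell with the knockdown in both media. Kcnh2 fell by 0.50 on the log2 scale (SE 0.07, adjusted p = 4.86e-06) in vehicle cells, with 42.5 to 46.1 CPM in DKD cells and 58.7 to 69.0 CPM in S cells, and by 0.42 (SE 0.07, adjusted p = 3.14e-05) under 915, with 50.6 to 56.7 CPM in DKD cells and 69.1 to 72.8 CPM in S cells. Kcnq1 fell by 0.64 (SE 0.11, adjusted p = 0.000758) in vehicle cells and by 0.83 (SE 0.11, adjusted p = 2.77e-05) under 915. The level of Kcnq1 in DKD cells with 915 (43.2 to 57.5 CPM) overlapped that in S vehicle cells (46.9 to 58.9 CPM). Kcne1 fell as well, by 1.22 (SE 0.23) in vehicle cells and by 0.91 (SE 0.22) under 915.

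Kcnj8 rose with the knockdown, to 4.46, 5.04 and 5.46 CPM in DKD vehicle cells, against 2.94, 2.42 and 2.54 CPM in S vehicle cells (log2 fold change 0.92, SE 0.21, adjusted p = 0.00233). Under 915 its rise of 0.53 (SE 0.20, adjusted p = 0.0433) was lost without any 1 of DKD_915 replicates 2 or 3, the 3 DKD_vehicle libraries, or S_915 replicates 1 or 2 (0.38 to 0.59, adjusted p up to 0.234), and with the replicate number as a block (0.54, adjusted p = 0.0555) or without the low-count filter (0.52, adjusted p = 0.0971). Kcnj2 did not pass in vehicle cells (log2 fold change 0.18, SE 0.12), and under 915 it was higher in DKD cells (0.50, SE 0.12, adjusted p = 0.00309). Without DKD_915 replicate 1 that value was 0.31 (adjusted p = 0.0532). Kcnd3 passed only under 915, at -0.19 (SE 0.08, adjusted p = 0.0492), and this call was lost under 7 other settings and without any 1 of DKD_915 replicates 2 or 3, the 3 DKD_vehicle libraries, the 3 S_915 libraries or S_vehicle replicate 3 (-0.21 to -0.16, adjusted p up to 0.165). On library totals without TMM scaling it was -0.06, where the median of all genes was 0.16. Kcnj3 did not pass in either comparison (-0.48, SE 0.22, adjusted p = 0.135 in vehicle cells).

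**Figure D4:**
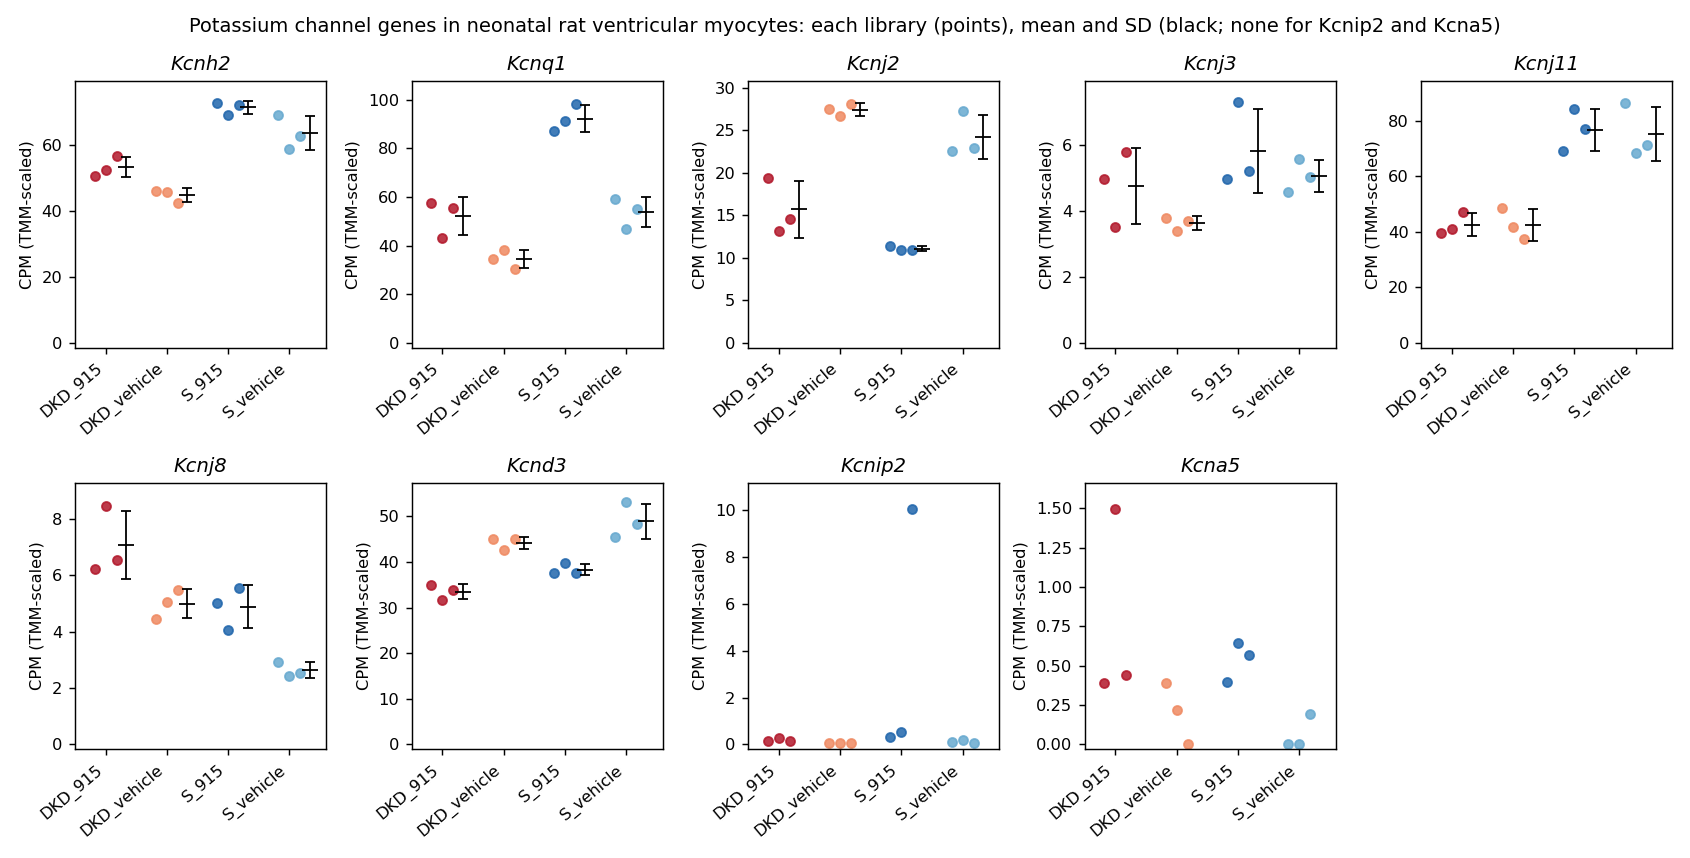
CPM of the 9 matched genes in each rat library (points), by group, with the group mean and SD in black except for Kcnip2 and Kcna5. Kcnj11 is lower in all DKD libraries than in all S libraries, Kcnj2 is lower and Kcnq1 higher with 915 for both siRNAs, and 1 library of S cells with 915 stands apart for Kcnip2.

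Of 41 other potassium channel genes tested in rat, 915 raised 4 and lowered 5 in S cells and raised 4 and lowered 5 in DKD cells. Kcne4, an accessory subunit that inhibits delayed rectifiers, fell by 1.26 (SE 0.11) in S cells and by 0.95 (SE 0.11) in DKD cells, with 15.9 to 20.9 CPM in S cells with 915 against 42.3 to 44.6 CPM in S vehicle cells. Kcnmb1 fell by 2.03 (SE 0.22) in S cells and by 1.54 (SE 0.22) in DKD cells. Kcnk3, a background leak channel, rose by 0.65 (SE 0.09) in S cells and by 0.70 (SE 0.10) in DKD cells, and Kcnj5 rose by 0.43 (SE 0.07) in S cells. The knockdown raised 1 and lowered 4 of the 41 in vehicle cells, and raised 7 and lowered 6 under 915. Kcnk3 had 49.2 to 58.9 CPM in DKD vehicle cells, against 141 to 158 CPM in S vehicle cells (log2 fold change -1.45, SE 0.10), and Kcng2, a modifier subunit, fell by 0.89 (SE 0.10). Abcc8 was the only one of the 41 whose response to 915 differed between DKD and S cells (difference -0.41, SE 0.10, adjusted p = 0.0253). Klf15 rose with 915 by 0.72 (SE 0.08) in S cells and 0.78 (SE 0.08) in DKD cells, Irx5 by 0.47 (SE 0.08) and 0.41 (SE 0.08), and the knockdown lowered Klf15 by 0.27 (SE 0.08) in vehicle cells and by 0.20 (SE 0.08) under 915.

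**Figure D5:**
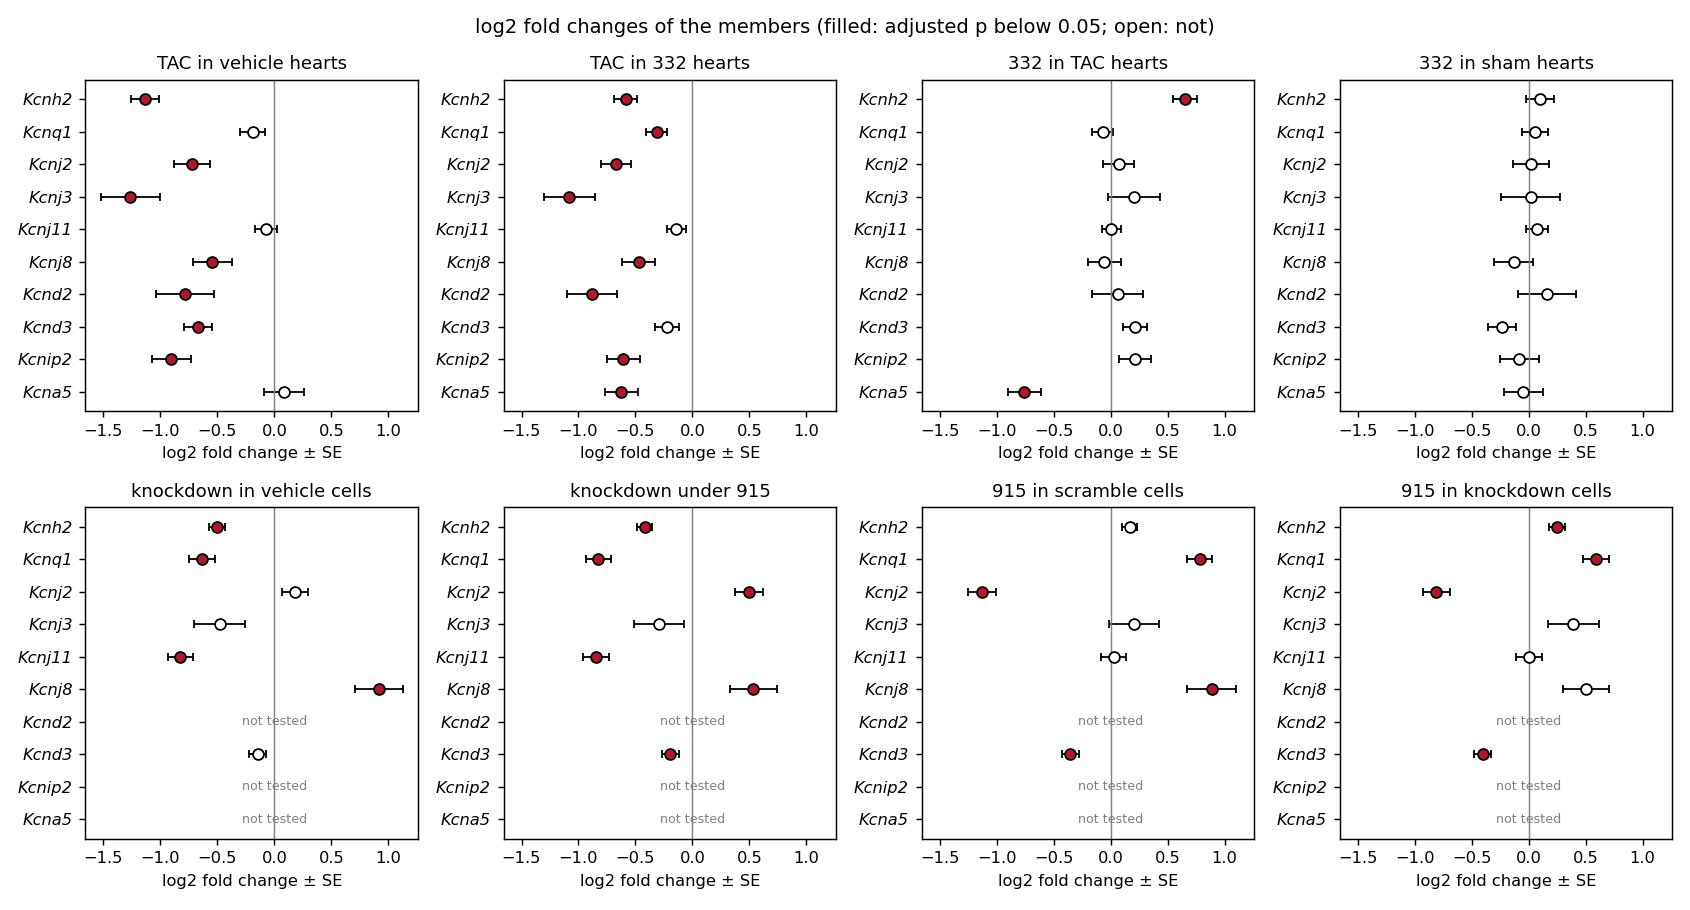
Log2 fold change and SE of each gene in the 4 mouse comparisons (top) and the 4 rat comparisons (bottom), filled where the adjusted p was below 0.05. On the TMM scale TAC values lie below 0 but for Kcna5 in vehicle hearts, and the rat values lie on both sides of 0.

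Kcnj2 fell with 915 in both kinds of rat cells, and its difference between 332 and vehicle was 0.07 (SE 0.13) in TAC hearts and 0.02 (SE 0.16) in sham hearts. Kcnq1 rose with 915 and gave -0.07 (SE 0.09) with 332 in TAC hearts and 0.06 (SE 0.11) in sham hearts. Kcnh2 was higher with 332 in TAC hearts and with 915 in DKD cells. The agents, species, ages and times differ between the systems, and no test compares them. The genes whose pattern over the libraries was most like that of a member, by Pearson correlation of log2 CPM (centred by sequencing set in mouse), were Atp5g1 (0.992) for Kcnh2, Mrps36 (0.983) for Kcnj11 and Etl4 (0.982) for Kcnj2 over the 12 rat libraries. Over the 18 mouse libraries they were Nr3c2 (0.966) for Kcnh2, Ppm1k (0.982) for Kcnj3, Rnf207 (0.974) for Kcnip2 and Timp4 (0.889) for Kcna5. These libraries share their groups, so the correlations describe the group differences as well as the genes.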

How the data were processed

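Rat counts come from a table the authors deposited, and mouse estimated counts from 18 deposited tables that list transcripts, whose units are given per the file headers. FPKM (rat) and TPM (mouse) are the authors' deposited values and were used only for levels per length. For rat, HISAT2 2.0.5, featureCounts 1.5.0-p3, DESeq2 1.20.0, StringTie 1.3.3b and the build rn6 are named in the submitters' processing notes. For mouse those notes name fastp, Salmon and DESeq2, whose versions and build are not given in the sources used here. Mouse coordinates and promoters are RefSeq's for GRCm38.p6, and rat coordinates are those of the deposited table.

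Mouse estimated counts of 140790 transcripts were summed per gene symbol and rounded (7.53% of the sums were not whole within 1e-06). Genes were kept by filterByExpr of edgeR 4.0.16 in R 4.3.3, with a count minimum of 10. This kept 15181 genes in rat and 14038 in mouse, among them 7 of 9 rat and 10 of 10 mouse members. Each species had 1 fit over its 4 groups (12 rat and 18 mouse libraries). The mouse fit also had the sequencing set, read from the lanes in the deposited file names, as a covariate. Both used TMM scaling (factors 0.954 to 1.06 in rat and 0.884 to 1.15 in mouse) and the robust quasi-likelihood test, adjusted by Benjamini-Hochberg at 0.05. The set term is why fitted differences can depart from those of the group means, and sham vehicle hearts were in set 1 only. SEs were derived from the F values. The script was tested on simulated data. The members, lists, named genes and alternatives were chosen with earlier results of these data known. All members are named. Of the other potassium channel genes up to 3 in each direction with the smallest adjusted p are named, and of the regulators Klf15, Irx5 and up to 2 in each direction, while Kcne1, Kcnj5, Abcc8 and Abcc9 were added after their values were seen, as partners of members. Alternatives were RLE size factors, other filters, DESeq2 1.42.0, a replicate block, only the groups compared, each library left out, no set term, each set alone and a clock score term. Library totals without TMM were added after seeing the data. Per-length ratios used a pseudocount of 0.1.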

Additional observations from a re-analysis of the deposited data

How the results depend on the processing

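Over the members and comparisons, 1978 values under an alternative stayed on their side of the threshold, 15 passed that had not, 75 no longer passed, and no called value changed direction. Some values that did not pass changed sign, such as Kcnj3 (-0.31) and Kcnip2 (-0.11) for 332 in TAC hearts with the clock score term. The number of members called differed by over 1.5 times from the reported one in the following cases, and the cause was not tested unless stated. For 915 in S cells it was 7 without the low-count filter, since that fit also tests and calls Kcnip2 and Kcna5, and calls Kcnh2. That fit called 6338 of 23155 genes, against 6400 of 15181 with the filter. For TAC in vehicle hearts it was 0 with the clock score term, where 47 of all 14038 genes passed, against 3710 without it. For TAC in hearts with 332 it was 0 in set 2 alone, where each group has 2 hearts and 52 of all 13861 genes passed. For 332 in TAC hearts it was 1 with the replicate block, 1 without the set term, 0 in set 1 alone, 0 in set 2 alone and 0 with the clock score term, and 1 to 2 when each library was left out. Over all genes, 59 passed in the reported fit and 39 with the replicate block. Without the set term 8 passed, in set 1 alone 8, in set 2 alone 3 and with the clock score term 0. For the difference of the 332 effects it was 2 without the low-count filter. Same-numbered libraries did not deviate together (correlations -0.053 to 0.040 in rat and -0.27 to 0.079 in mouse), so they share only a number. The replicate block gave Kcna5 -0.75 (adjusted p = 0.0658) for 332 in TAC hearts, and Kcnj8 0.54 (adjusted p = 0.0555) and Kcnd3 -0.19 (adjusted p = 0.0658) for the knockdown under 915, and it changed no other member's call. On library totals without TMM the median of all genes was 0.11 and 0.16 for the knockdown in vehicle cells and under 915 (0.01 and 0.03 with TMM), 0.10 for TAC in vehicle hearts (-0.01 with TMM) and 0.15 for TAC in hearts with 332 (0.00 with TMM). Depth limits Kcnip2 and Kcna5 in rat, where nearly all libraries had under 25 counts.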

Other observations

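Transcript shares of the estimated counts were read for the mouse genes with several transcripts. Kcnh2-201, the longer transcript, held 68.1% ± 4.93 (SD, n = 5) of the Kcnh2 counts in TAC hearts with 332, 74.5% ± 10.7 (n = 5) in TAC vehicle hearts, 70.1% ± 7.09 (n = 5) in sham hearts with 332 and 75.2% ± 2.03 (n = 3) in sham vehicle hearts. The ranges overlapped between 332 and vehicle in both TAC and sham hearts. Kcnj8-202 held 36.9% to 53.1% of the Kcnj8 counts in TAC hearts with 332 and 41.4% to 100.0% in TAC vehicle hearts, with overlapping ranges, and the depth behind these shares is low. Kcnip2-209 held 68.2% ± 4.44 of the Kcnip2 counts in TAC hearts with 332, 67.2% ± 6.76 in TAC vehicle hearts, 63.7% ± 3.22 in sham hearts with 332 and 64.3% ± 7.04 in sham vehicle hearts. These shares are estimates of the authors' quantification tool and were not tested.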
